A study of Mus musculus with 18 samples.

Results

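The genes of the cell cycle and of DNA replication were followed in laser-captured Brunner's glands, the mucus glands under the lining of the duodenum. The rule names 40 mouse genes by symbol and Ensembl identifier and takes no measured value. Of these, 36 have a row among the 17204 rows of the table; Mki67, Pcna, Cdt1 and Ube2c were not analysed here. The 18 arrays came from 18 male CD-1 mice, 3 in each of 6 groups. Wild-type mice and GLP1-R -/- mice, which lack the receptor for glucagon-like peptide 1, were untreated or were collected 6 h or 18 h after exendin-4, a peptide agonist of that receptor. All groups share strain, sex and tissue, and none is labelled as given vehicle alone. The labels state no age, dose or route, nor how the receptor gene was disrupted. Within a genotype, the agonist cannot be told apart from the act of dosing and the time of collection.

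A cell that divides first makes D cyclins, then cyclin E, which with their kinases release the E2F transcription factors. Replication origins are loaded in advance with the MCM helicase, and S phase draws on enzymes that make deoxyribonucleotides. Cyclins A and B with Cdk1 then drive mitosis, which the spindle checkpoint and the anaphase-promoting complex bring to an end, while the inhibitor encoded by Cdkn1a can hold the kinases back.

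Values are log2 signals from RMA, normalised between arrays. RMA does not call genes present or absent, which matters for the dim members. Testing required a value above 4.79, the 30th percentile over the table, on 3 or more arrays; 12775 genes passed, among them 29 of the 36. Ccnb1, Aurkb, Bub1, Tyms, Kif11, Kif20a and Tpx2 did not pass, and 4 of these 7 lay below that level on every array. Differences were tested with limma over all 12775 genes, and called where the adjusted p was under 0.05. Some genes passed the filter mainly through one group: Birc5 was above it on 3 wild-type 18 h arrays and 1 knockout 18 h array, Nusap1 on 2 and 1 of these, Prc1 on 5 arrays with 3 of them wild-type at 18 h, and Bub1b on 5 with 2. Mcm5 was above it on 7 arrays, 3 wild-type at 6 h, 3 wild-type at 18 h and 1 knockout at 6 h, and on no untreated array. A count over the tested genes therefore favours genes that are high at 18 h. For that reason medians and counts of overlap are given over the 36 genes, beside the same over all 17204 rows. In microdissected tissue, fewer cells of a type and less RNA per cell cannot be told apart. The receptor transcript and cell type markers, those of the gland included, were not analysed here, since identifiers of other rows were not paired with symbols. Knockout 6 h replicate 13 stood apart, with a median log2 signal of 6.11 against 5.88 to 5.97 and a median correlation of 0.953 with the other arrays across genes, against 0.979 to 0.988 for the rest.

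The plainest feature of the list was its level at 18 h. Of the 36 genes, 26 had their highest group mean in wild-type mice at 18 h, 8 in wild-type mice at 6 h, and 1 each in knockouts at 6 h (Foxm1, where replicate 13 was highest at 5.95) and 18 h (Rrm1). Untreated knockouts held the lowest mean for 15 genes and untreated wild-type mice for 7. How all rows divide among the groups in this way was not counted, so these counts have no share to stand beside. In wild-type mice 62.5% of all rows were also higher at 18 h than untreated. The mean over the 36 genes of the difference from untreated wild-type mice was computed per array as a description. It was 0.25, 0.56 and 0.46 on the wild-type 18 h arrays and 0.27, 0.093 and 0.17 on the knockout 18 h arrays. On the wild-type 6 h arrays it was 0.12, 0.19 and 0.099, and on the untreated wild-type arrays 0.044, 0.040 and -0.083. Untreated knockouts were at -0.045, -0.17 and -0.16, and knockouts at 6 h at 0.16, -0.037 and -0.18, the first being replicate 13. The median of the same difference over all tested genes was 0.13 on replicate 13, close to its value for the list. On the other arrays that median was between -0.065 and 0.045. Within each genotype, every 18 h array lay above every untreated array. Mcm6 was lower in knockouts at every time, and without it the untreated knockouts averaged -0.076 ± 0.0578 and the knockouts at 18 h 0.22 ± 0.0822 (SD, n = 3 each).

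**Figure D1:**
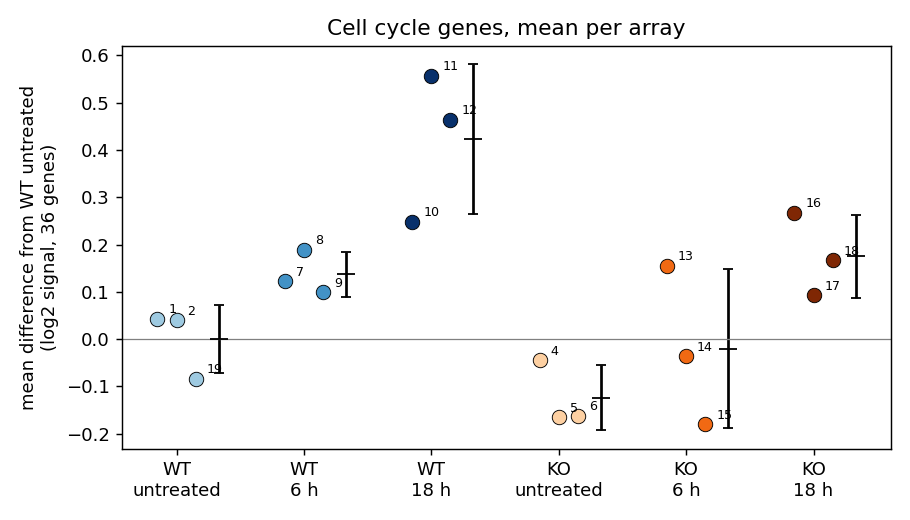
Mean over 36 cell cycle genes of the difference from the untreated wild-type mean, in log2 signal, for each of the 18 arrays (points, with the replicate numbers of the labels) and the mean and SD of each group of 3 (bars). WT is wild-type and KO is GLP1-R -/-. The wild-type 18 h arrays lie between 0.25 and 0.56 and the knockout 18 h arrays between 0.093 and 0.27, above the untreated arrays of their genotype.

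Wild-type glands 18 h after exendin-4 were first compared with untreated wild-type glands. Rrm2 and Mcm5 rose and Ccnd2 fell, 3 of the 29 tested genes, where 0.196% of all tested genes were called, 0.125% higher and 0.0705% lower. At an unadjusted p under 0.05, 16 of the 29 were higher, where 4.73% of all tested genes were, and 1 was lower. The filter favours genes that are high at 18 h, so the count of 16 is raised by it to an unknown degree. Without the filter the same 3 genes were called of the 36, where 0.145% of all rows were. Over the 36 genes the median difference was 0.45 on the log2 scale, against 0.050 over all rows, and 34 of the 36 were positive, where 62.5% of all rows were. The 3 treated arrays lay above the 3 untreated ones for 17 of the 36 genes, or 47.2%, where 11.7% of all rows did so, and below them for 1 gene, where 5% did.

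Rrm2 (ENSMUSG00000020649_at) gave the largest change of the list between wild-type groups. It encodes the regulated small subunit of ribonucleotide reductase, the enzyme that makes deoxyribonucleotides for replication. Its log2 signal was 4.81, 4.72 and 4.57 in untreated wild-type mice, 4.74, 5.13 and 4.91 at 6 h and 6.30, 6.45 and 6.32 at 18 h. The 18 h arrays lay well clear of every other wild-type array. The rise from untreated to 18 h was 3.15-fold, a log2 difference of 1.66 (SE 0.24, limma adjusted p = 0.00675). It was called in all 26 alternative settings, with an adjusted p between 0.000118 and 0.0476. The large subunit, Rrm1, differed by 0.15 (SE 0.13, limma adjusted p = 0.834). Tk1, a thymidine salvage enzyme, differed by 0.42 (limma adjusted p = 0.431). Tyms, which makes thymidylate, stayed below the filter level on every array, between 3.88 and 4.33.

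Mcm5 (ENSMUSG00000005410_at), a subunit of the replicative helicase, was at 4.20, 4.56 and 4.74 untreated, 5.23, 4.80 and 5.09 at 6 h and 5.12, 5.57 and 5.51 at 18 h in wild-type mice. Both treated groups lay above the untreated one without overlap. The 18 h rise was 1.87-fold, a log2 difference of 0.90 (SE 0.17, limma adjusted p = 0.0346). That call was lost in 8 of 25 alternatives, among them those without wild-type untreated replicate 1 (adjusted p = 0.145) or 2 (0.127), wild-type 18 h replicate 11 (0.182) or 12 (0.104), wild-type 6 h replicate 9 (0.0505), or knockout 18 h replicate 17 (0.0568) or 18 (0.0535). All 8 tested genes of origin licensing and the helicase had positive differences at 18 h, from 0.19 for Mcm3 to 0.90 for Mcm5. Only Mcm5 was called among them. Mcm7, another helicase subunit, differed by 0.47 (SE 0.13, limma adjusted p = 0.213) and its groups did not overlap. Cdc45, a cofactor of the active helicase, differed by 0.49 (limma adjusted p = 0.418), also without overlap.

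Ccnd2 (ENSMUSG00000000184_at), one of the D cyclins that act before S phase, moved the other way. It was at 8.20, 8.16 and 8.24 in untreated wild-type mice and at 7.49, 7.58 and 7.22 at 18 h. The fall was 1.70-fold, a log2 difference of -0.77 (SE 0.15, limma adjusted p = 0.0444). The 18 h arrays all lay below every other wild-type array, but the call was lost in 17 of 26 alternatives, including each that left out an array of either group compared (adjusted p 0.0936 to 0.175). Ccnd1, the other D cyclin of the list, differed by -0.36 (SE 0.20, limma adjusted p = 0.66). Ccne1, cyclin E1, which follows the D cyclins, differed by 0.53 (SE 0.15, limma adjusted p = 0.222).

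The genes of G2 and mitosis were higher at 18 h as well but were not called. The largest difference among them was that of Birc5, or survivin, a member of the chromosomal passenger complex, at 0.86 (SE 0.18, limma adjusted p = 0.0724). All 12 tested genes of mitotic entry, the spindle and its checkpoint had positive differences. They ran from 0.078 for Foxm1, a transcription factor of G2 genes, to the value of Birc5. Cdk1, the mitotic kinase, was at 6.74, 6.97 and 6.35 untreated and at 6.56, 7.71 and 7.58 at 18 h. Replicate 10 lay inside the untreated range while the other 2 were above it, and the difference of 0.60 (SE 0.28) was not called (limma adjusted p = 0.592). Top2a, the topoisomerase that untangles replicated DNA, was at 6.19, 5.82 and 5.39 untreated and at 5.90, 6.30 and 6.68 at 18 h, which overlap (difference 0.49, SE 0.20, limma adjusted p = 0.496). Ccnb1, cyclin B1, passed the filter level on 1 array only, in a knockout at 18 h, and was not tested. Its signal was 3.45 in untreated wild-type replicate 19, 3.95 in replicate 2 and 4.0 in replicate 1, and 4.31, 4.56 and 4.56 at 18 h, without overlap, though RMA compresses differences between such dim signals. Without wild-type untreated replicate 1, wild-type 6 h replicate 9, wild-type 18 h replicate 11 or 12, or knockout 18 h replicate 17 or 18, 1 of the 29 genes was called, Rrm2. In these fits 8 to 17 of all tested genes were called, against 25 in the main fit.

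**Figure D2:**
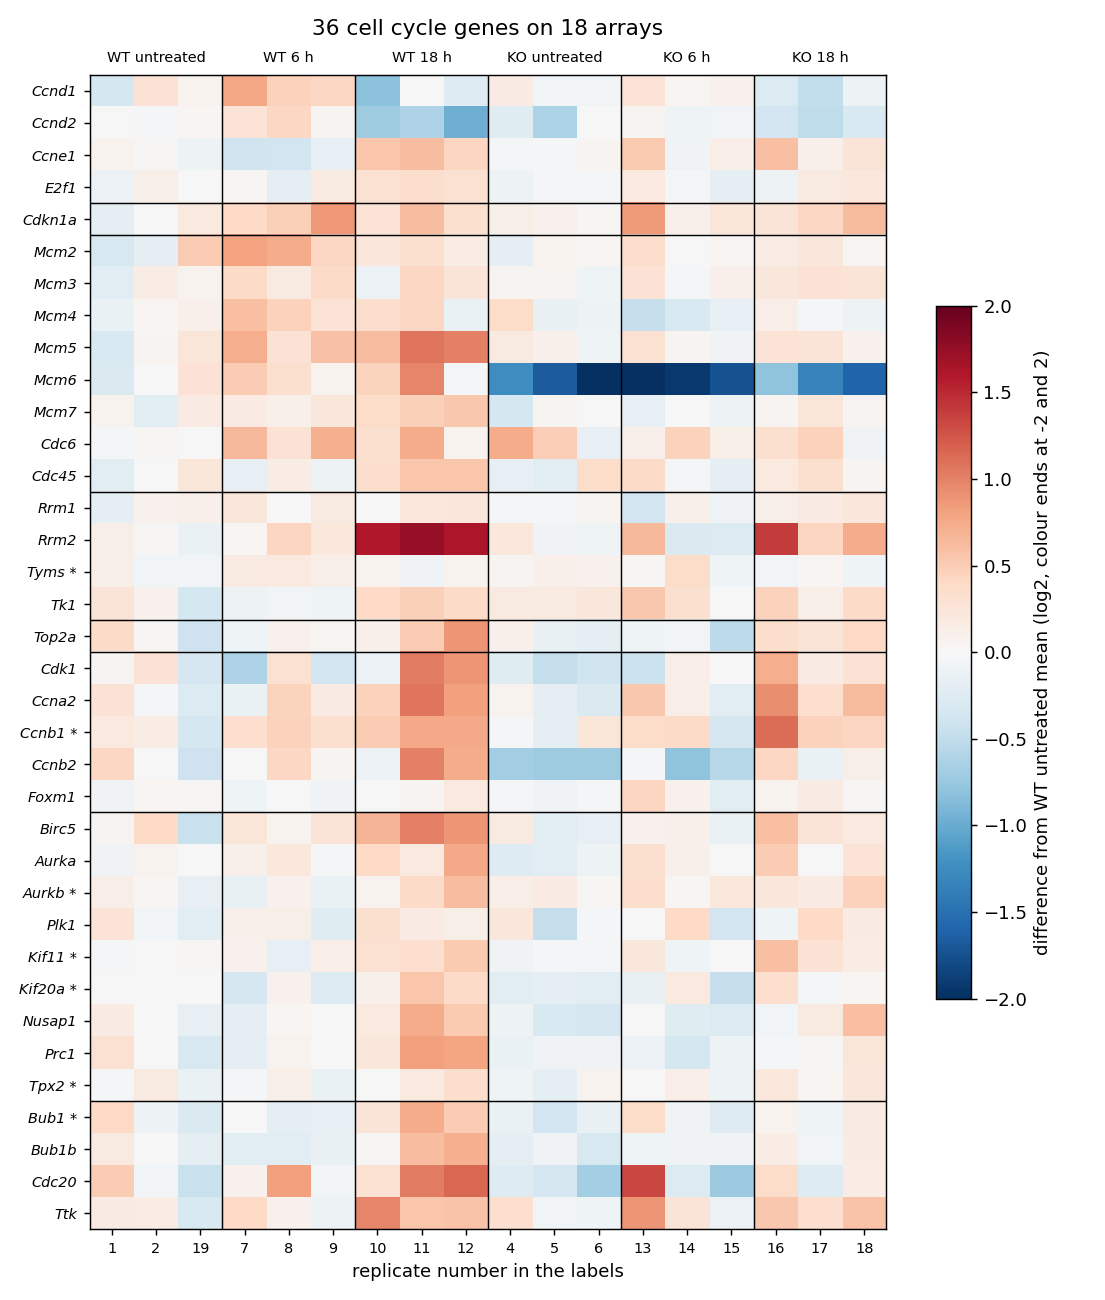
Difference of each array from the untreated wild-type mean, in log2 signal, for 36 genes (rows, in blocks by role) and 18 arrays (columns, with the replicate numbers of the labels). Asterisks mark the 7 genes below the filter. The wild-type 18 h columns are mostly red, with Rrm2 the strongest and Ccnd2 blue, and the Mcm6 row is blue in all 9 knockout arrays.

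The promoter windows of the genes that the comparisons turn on are shown with short motifs known from cell cycle genes. The sequences are those of RefSeq (GRCm38.p6), the 250 bases before the annotated start, written 5′ to 3′ on the strand of the gene. Capitals mark matches on either strand to 3 motifs: the E2F words TTTCCCGC, TTTCGCGC, TTTGCCGC and TTTGGCGC, the cell cycle homology region (CHR) words TTTGAA and TTCGAA, and the CCAAT box, letters CCAAT. Rrm2 and Mcm5 rose at 18 h, Ccne1 was higher at 18 h than at 6 h in every alternative run, and Mcm6 differed by genotype. Cdk1, which was not called, is shown because its window holds all 3 motifs, as does a window of Mcm7.
Rrm2, chr12:24708004-24708253, plus strand: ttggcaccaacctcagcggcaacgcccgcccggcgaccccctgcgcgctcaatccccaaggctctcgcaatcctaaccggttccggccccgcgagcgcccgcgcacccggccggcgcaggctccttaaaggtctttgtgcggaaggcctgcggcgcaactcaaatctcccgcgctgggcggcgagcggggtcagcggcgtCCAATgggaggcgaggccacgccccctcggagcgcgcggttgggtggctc
Mcm5, chr8:75109259-75109508, plus strand: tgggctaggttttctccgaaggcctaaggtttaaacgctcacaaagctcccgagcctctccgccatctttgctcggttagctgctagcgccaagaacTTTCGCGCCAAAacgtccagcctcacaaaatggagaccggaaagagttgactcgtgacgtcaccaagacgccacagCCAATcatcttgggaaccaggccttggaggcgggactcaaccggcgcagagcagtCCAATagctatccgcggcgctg
Ccne1, chr7:38107491-38107740, minus strand: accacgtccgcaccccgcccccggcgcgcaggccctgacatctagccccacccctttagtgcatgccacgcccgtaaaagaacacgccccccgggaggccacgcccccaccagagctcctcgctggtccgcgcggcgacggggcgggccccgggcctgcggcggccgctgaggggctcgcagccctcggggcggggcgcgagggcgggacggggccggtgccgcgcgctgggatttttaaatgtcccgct
Mcm6, chr1:128359706-128359955, minus strand: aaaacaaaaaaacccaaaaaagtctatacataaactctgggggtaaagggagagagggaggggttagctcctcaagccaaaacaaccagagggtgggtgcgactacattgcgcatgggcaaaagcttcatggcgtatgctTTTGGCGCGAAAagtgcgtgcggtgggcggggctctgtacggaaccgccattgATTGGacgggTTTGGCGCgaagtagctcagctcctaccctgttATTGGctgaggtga
Cdk1, chr10:69352913-69353162, minus strand: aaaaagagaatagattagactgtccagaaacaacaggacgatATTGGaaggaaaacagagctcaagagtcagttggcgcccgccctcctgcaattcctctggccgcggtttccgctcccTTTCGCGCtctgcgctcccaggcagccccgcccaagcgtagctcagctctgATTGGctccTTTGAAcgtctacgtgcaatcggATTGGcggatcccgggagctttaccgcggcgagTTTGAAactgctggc

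The Rrm2 window held a single CCAAT box and neither of the other motifs. The Mcm5 window held 2 E2F words, on opposite strands and overlapping each other, and 2 CCAAT boxes. The Mcm6 window held 3 E2F words, 2 of which overlap in that way, and 2 CCAAT boxes. The Cdk1 window held all 3 motifs, and Cdk1 was the only gene of mitotic entry, the spindle or its checkpoint, among those with a window, that held an E2F word. The windows of Ccne1, Birc5, Nusap1, Tk1, E2f1, Tyms, Cdt1 and Cdkn1a held none of the 3 motifs. That holds for these windows alone, since bases outside them were not searched and other starts of these genes may differ. The windows of Mcm7 differed from each other in their motifs, as did those of Prc1. Promoter windows were found for 32 of the 40 genes, 35 windows in all. E2F words were in 5 of these 35 windows, or 14.3%, against 1.86% of all 32851 windows of that length in the table. CHR words were in 34.3% against 17.1%, and CCAAT boxes in 71.4% against 33.8%. No window was given for Ccna2, Ccnd1, Ccnd2, Mcm4, Aurkb, Foxm1, Kif20a and Tpx2. The matches describe letters in these windows and do not show that a factor bound there. Whether they relate to the differences in signal was not tested.

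At 6 h after exendin-4 no gene of the list was called in wild-type mice, 0 of 29 by limma, where 3.39% of all tested genes were. At an unadjusted p under 0.05 there were 7, all higher, or 7 of 29 where 8.29% of all tested genes were higher at that level. The median over the 36 genes was 0.13, against 0.023 over all rows, but it was 0.024 without wild-type untreated replicate 19 and 0.073 without wild-type 6 h replicate 8. The largest differences were those of Mcm2, Cdkn1a, Cdc6, Ccnd1 and Mcm5. Mcm2, a helicase subunit, was at 6.55, 6.69 and 7.39 untreated and at 7.68, 7.63 and 7.29 at 6 h. Untreated replicate 19 lay inside the 6 h range, and the difference of 0.65 (SE 0.18) was not called (limma adjusted p = 0.0601). Cdkn1a, the inhibitor of cyclin-dependent kinases, was at 5.85, 6.04 and 6.23 untreated and at 6.44, 6.52 and 6.91 at 6 h. These do not overlap, with a difference of 0.58 (SE 0.18, limma adjusted p = 0.104). The difference of Cdc6, which loads the helicase onto origins, was 0.55 (limma adjusted p = 0.223). Ccnd1, whose values are given with the later comparison, differed by 0.55 (SE 0.20, limma adjusted p = 0.168) without overlap, and Mcm5 by 0.54 (SE 0.17, limma adjusted p = 0.0945). Mcm2, Mcm5 and Cdkn1a were called, 3 genes, without knockout 6 h replicate 13, which enters only through the shared spread. That fit called 880 of all 12775 tested genes, where the main fit called 433. Without wild-type untreated replicate 19, Mcm2 alone was called of the list, where 378 of all tested genes were.

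On the low side at 6 h stood Ccne1 at -0.32 (limma adjusted p = 0.351), Cdk1 at -0.23 (0.822) and Bub1b, a spindle checkpoint kinase, at -0.19 (0.666). Of the 8 tested licensing and helicase genes, 7 were positive at 6 h with a median of 0.38. The 12 tested genes of mitotic entry, the spindle and its checkpoint ranged from -0.23 to 0.28. Groups did not overlap upward for 9 of the 36 genes, or 25%, against 12.3% of all rows, and downward for 1 gene, Ccne1, against 8.51%.

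The direct comparison of wild-type mice at 18 h with those at 6 h called the most genes of the list. Of 29 tested genes 7 were higher at 18 h, namely Rrm2, Ccne1, Birc5, Prc1, Bub1b, Nusap1 and Tk1, and Ccnd1 and Ccnd2 were lower. That is 31% of the tested genes of the list, where 10.9% of all tested genes were called, 4.82% higher and 6.05% lower. The filter favours genes that are high at 18 h. Without it 8 of the 36 genes were called, where 7.94% of all rows were, and Nusap1 and Tk1 were not among them. Over the 36 genes the median difference was 0.37, against 0.037 over all rows. The 18 h arrays lay above the 6 h ones for 17 genes, or 47.2%, against 17.2% of all rows, and below them for 4, against 13.8%. Because this comparison shares its 18 h arrays with the one above and its 6 h arrays with the other, it is no independent repeat of either.

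The G1 cyclins parted most clearly. Ccnd1 (ENSMUSG00000070348_at) was at 9.41, 9.10 and 9.04 at 6 h and at 7.81, 8.63 and 8.39 at 18 h, and at 8.28, 8.92 and 8.71 untreated. The 6 h arrays lay above all others, while the untreated and 18 h arrays overlapped. Ccnd1 was 1.88-fold lower at 18 h than at 6 h, a log2 difference of -0.91 (SE 0.20, limma adjusted p = 0.00648). Ccnd2 was at 8.47, 8.61 and 8.25 at 6 h and was 2.02-fold lower at 18 h, a log2 difference of -1.01 (SE 0.15, limma adjusted p = 0.000356). Ccne1 (ENSMUSG00000002068_at) was at 5.94, 5.96 and 6.19 at 6 h, 6.42, 6.37 and 6.25 untreated and 6.90, 6.97 and 6.78 at 18 h, so its 3 wild-type groups did not overlap. It was 1.80-fold higher at 18 h than at 6 h, a log2 difference of 0.85 (SE 0.15, limma adjusted p = 0.00153). Rrm2 was 2.69-fold higher, a log2 difference of 1.43 (SE 0.24, limma adjusted p = 0.000986). These 4 genes were called in all 26 alternatives. E2f1, a transcription factor set free by the cyclins' kinases, differed by 0.31 (SE 0.13, limma adjusted p = 0.15).

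The mitotic calls were smaller and sat near the filter level. Birc5 (ENSMUSG00000017716_at) was at 4.52, 4.35 and 4.54 at 6 h and 4.96, 5.29 and 5.16 at 18 h (0.67, SE 0.18, limma adjusted p = 0.0258). Prc1 (ENSMUSG00000038943_at), which bundles the microtubules of the central spindle, was at 4.53, 4.77 and 4.71 and then 4.94, 5.53 and 5.50 (0.65, SE 0.17, limma adjusted p = 0.019). Bub1b (ENSMUSG00000040084_at) was at 4.43, 4.42 and 4.48 and then 4.66, 5.25 and 5.34 (0.64, SE 0.15, limma adjusted p = 0.0124). In all 3 genes the 18 h arrays lay above the 6 h ones, with replicate 10 the lowest of the 18 h arrays. Nusap1 (ENSMUSG00000027306_at), a spindle microtubule protein, was at 4.38, 4.60 and 4.55 and then 4.77, 5.32 and 5.09 (0.55, SE 0.17, limma adjusted p = 0.0467). Tk1 (ENSMUSG00000025574_at) was at 4.64, 4.70 and 4.66 and then 5.15, 5.22 and 5.13 (0.50, SE 0.16, limma adjusted p = 0.0478). The calls of Nusap1 and Tk1 were each lost in 17 of 25 alternatives. Both Nusap1 and Birc5 passed the filter on low values through 18 h arrays alone. Without that filter the limma adjusted p-values were 0.0525 for Nusap1, 0.0519 for Tk1 and 0.0297 for Birc5. Then 8 of the 36 genes were called, where 7.94% of all 17204 rows were. These were Bub1, a checkpoint kinase, and the 7 genes called with the filter other than Nusap1 and Tk1. Cdk1 had a larger difference, 0.83 (SE 0.28), without being called (limma adjusted p = 0.0717), and Mcm2 was at -0.42 (SE 0.18, limma adjusted p = 0.167).

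The count of 9, where 1389 of all tested genes were called, was 5 without wild-type 6 h replicate 7 or 9, where 874 and 810 were. It was 4 without wild-type 18 h replicate 11 or 12, where 937 and 1120 of all tested genes were called. It was also 4 with a filter at the 50th percentile, which left 15 genes of the list to test. Those 4 were Ccnd1, Ccnd2, Ccne1 and Rrm2 each time that the count was 4.

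**Figure D3:**
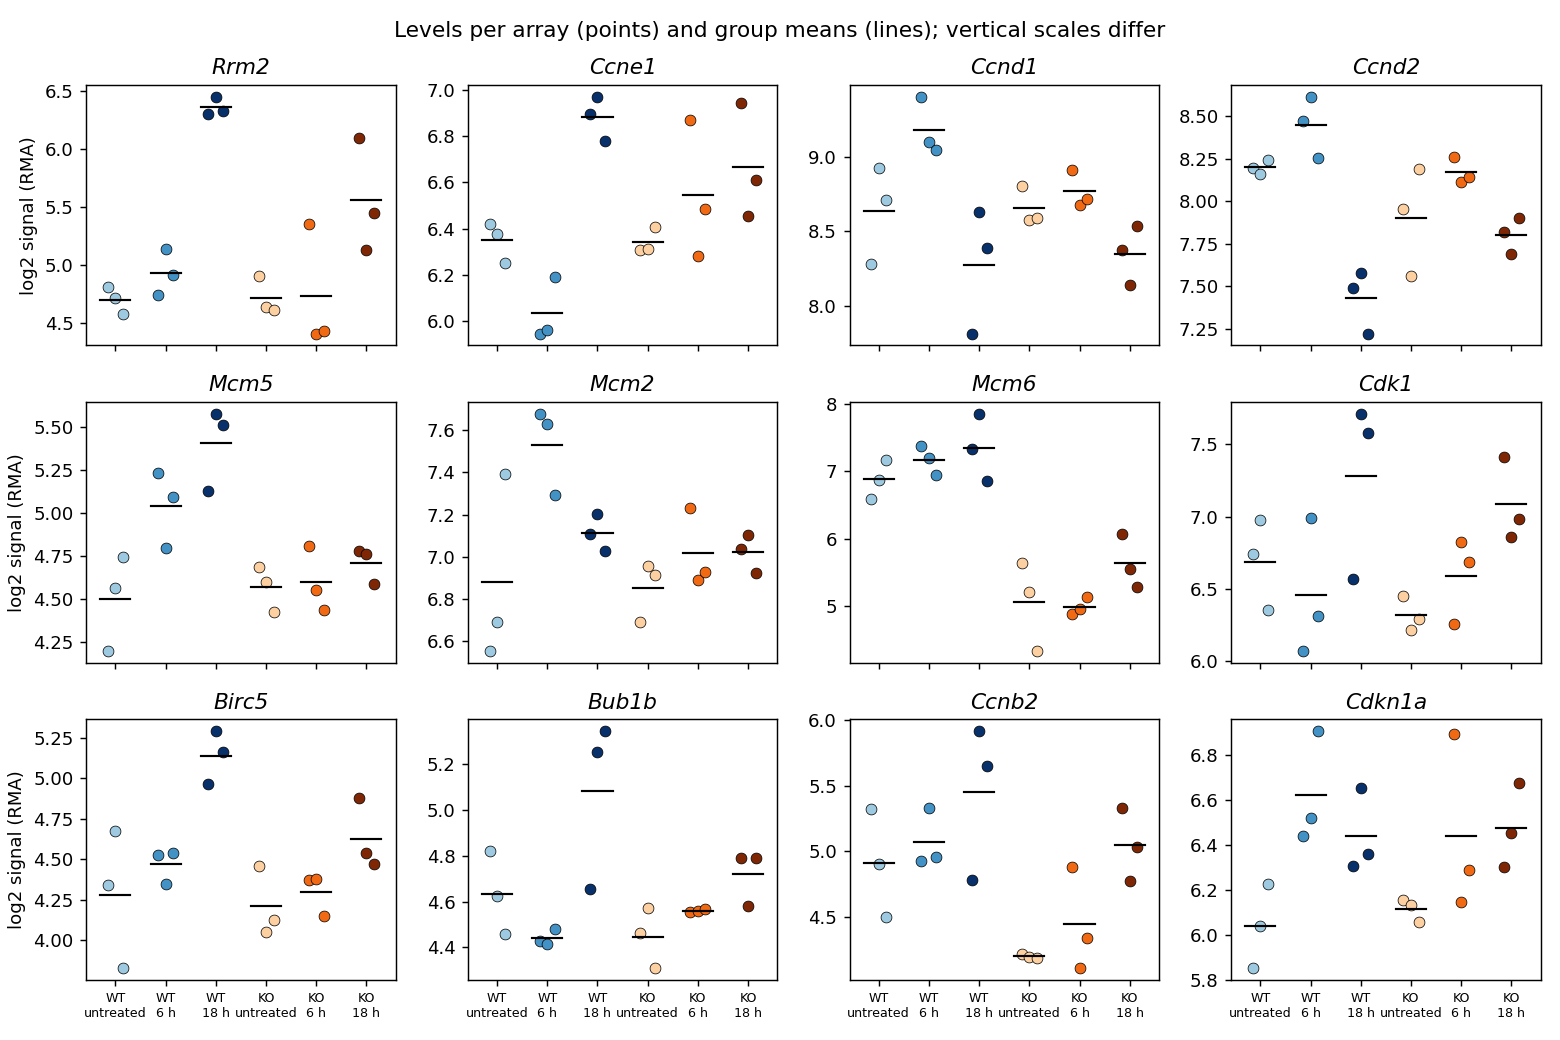
Log2 RMA signal of 12 genes on each array (points) in the 6 groups, with group means (lines); the vertical scale differs between panels and does not start at 0. WT is wild-type and KO is GLP1-R -/-. Rrm2 and Ccne1 have their highest group mean in wild-type mice at 18 h, Ccnd1 and Ccnd2 their highest at 6 h and lowest at 18 h among the wild-type groups, and Mcm6 is lower in all knockout arrays than in all wild-type arrays.

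In GLP1-R -/- mice, which lack the receptor, 0 of 29 genes were called by limma at 18 h against untreated knockouts, where 0% of all tested genes were. At an unadjusted p under 0.05 there were 8, all higher, where 2.12% of all tested genes were higher at that level. The filter favours genes that are high at 18 h in this count too. The 18 h arrays lay above the untreated ones for 20 of the 36 genes, or 55.6%, against 10.1% of all rows, and below them for 2, against 5.99%. The median difference was 0.27 over the 36 genes, against 0.031 over all rows, and 31 of the 36 were positive. Ccnb2, a B cyclin, had the largest difference of the tested genes, at 4.21, 4.19 and 4.19 untreated and 5.33, 4.77 and 5.03 at 18 h (0.85, SE 0.27, limma adjusted p = 0.801). Rrm2 was at 4.91, 4.64 and 4.61 untreated and at 6.10, 5.13 and 5.45 at 18 h. Its 18 h arrays were all above the untreated ones, and the difference of 0.84 (SE 0.24) had the smallest adjusted p of the list (limma adjusted p = 0.763). Cdk1 was at 6.45, 6.21 and 6.29 untreated and 7.41, 6.86 and 6.98 at 18 h (0.77, SE 0.28, limma adjusted p = 0.867). Ccna2, cyclin A2, differed by 0.76 (SE 0.22, limma adjusted p = 0.801). For each of these genes the 2 knockout groups did not overlap.

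At 6 h limma called 0 of 29 genes in knockouts, where 0% of all tested genes were called, with 2 of the 29 at an unadjusted p under 0.05, where 8.13% of all tested genes were. These were Aurka, a mitotic kinase, at 0.34 and Mcm4 at -0.35 (limma adjusted p = 0.595 for both). They were also the 2 of the 36 genes whose groups did not overlap, 1 upward, against 6.56% of all rows, and 1 downward, against 3.12%. Between 18 h and 6 h it again called 0, where 0% of all tested genes were. At an unadjusted p under 0.05 there were 9, 7 higher and 2 lower, where 8.93% of all tested genes were. Here as well the filter favours genes that are high at 18 h. Groups did not overlap upward for 10 of the 36 genes, against 4.51% of all rows, and downward for 2, against 7.5%. The 2 lower were Ccnd1 at -0.42 (SE 0.20, limma adjusted p = 0.555) and Ccnd2 at -0.37 (SE 0.15, limma adjusted p = 0.519). Replicate 13 had the highest value of the 3 knockout 6 h arrays for Rrm2, 5.35 against 4.41 and 4.43, for Ccne1, 6.87 against 6.28 and 6.48, for Cdkn1a, 6.89 against 6.14 and 6.29, and for Cdc20, an activator of the anaphase-promoting complex, 8.04 against 6.43 and 5.97. Without it the counts in knockouts stayed at 0 in all 3 comparisons.

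Whether the changes differed between the genotypes was tested by the interaction of genotype and treatment. Limma called 0 of 29 genes at 18 h, where 0.0235% of all tested genes were called, with 3 at an unadjusted p under 0.05, where 4.7% were. These were Rrm2, with an interaction, the wild-type minus the knockout change, of 0.82 (SE 0.34, limma adjusted p = 0.962), Mcm5, at 0.76 (SE 0.23, limma adjusted p = 0.706), and Ccnd2, at -0.67 (SE 0.21, limma adjusted p = 0.724). At 6 h it called 0, where 0.376% were called, with 4 at an unadjusted p under 0.05, where 10.3% were. The largest of these was Mcm4, a helicase subunit, at 0.80 (SE 0.23, limma adjusted p = 0.193). For the difference of 18 h from 6 h it called 0, where 1.54% were called, with 5 at an unadjusted p under 0.05, where 14.8% were, led by Ccne1 at 0.73 (SE 0.21, limma adjusted p = 0.104). The 95% interval of the Rrm2 interaction at 18 h ran from 0.10 to 1.53 and that of Cdk1 from -1.02 to 0.67, so the intervals are wide beside the changes themselves.

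The wild-type and knockout changes at 18 h share no array. Side by side over the 36 genes, 31 were higher in both genotypes and 2 lower in both, and the size was larger in wild-type mice for 25. As a description across genes, which are not independent and which share the same arrays, Pearson's r was 0.70 and Spearman's rho 0.69 at 18 h against untreated. At 6 h they were -0.094 and -0.069, with 19 of the 36 of one sign. None of these counts or correlations was computed over all rows. Of all rows, 62.5% were higher at 18 h than untreated in wild-type mice and 58.2% in knockouts.

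**Figure D4:**
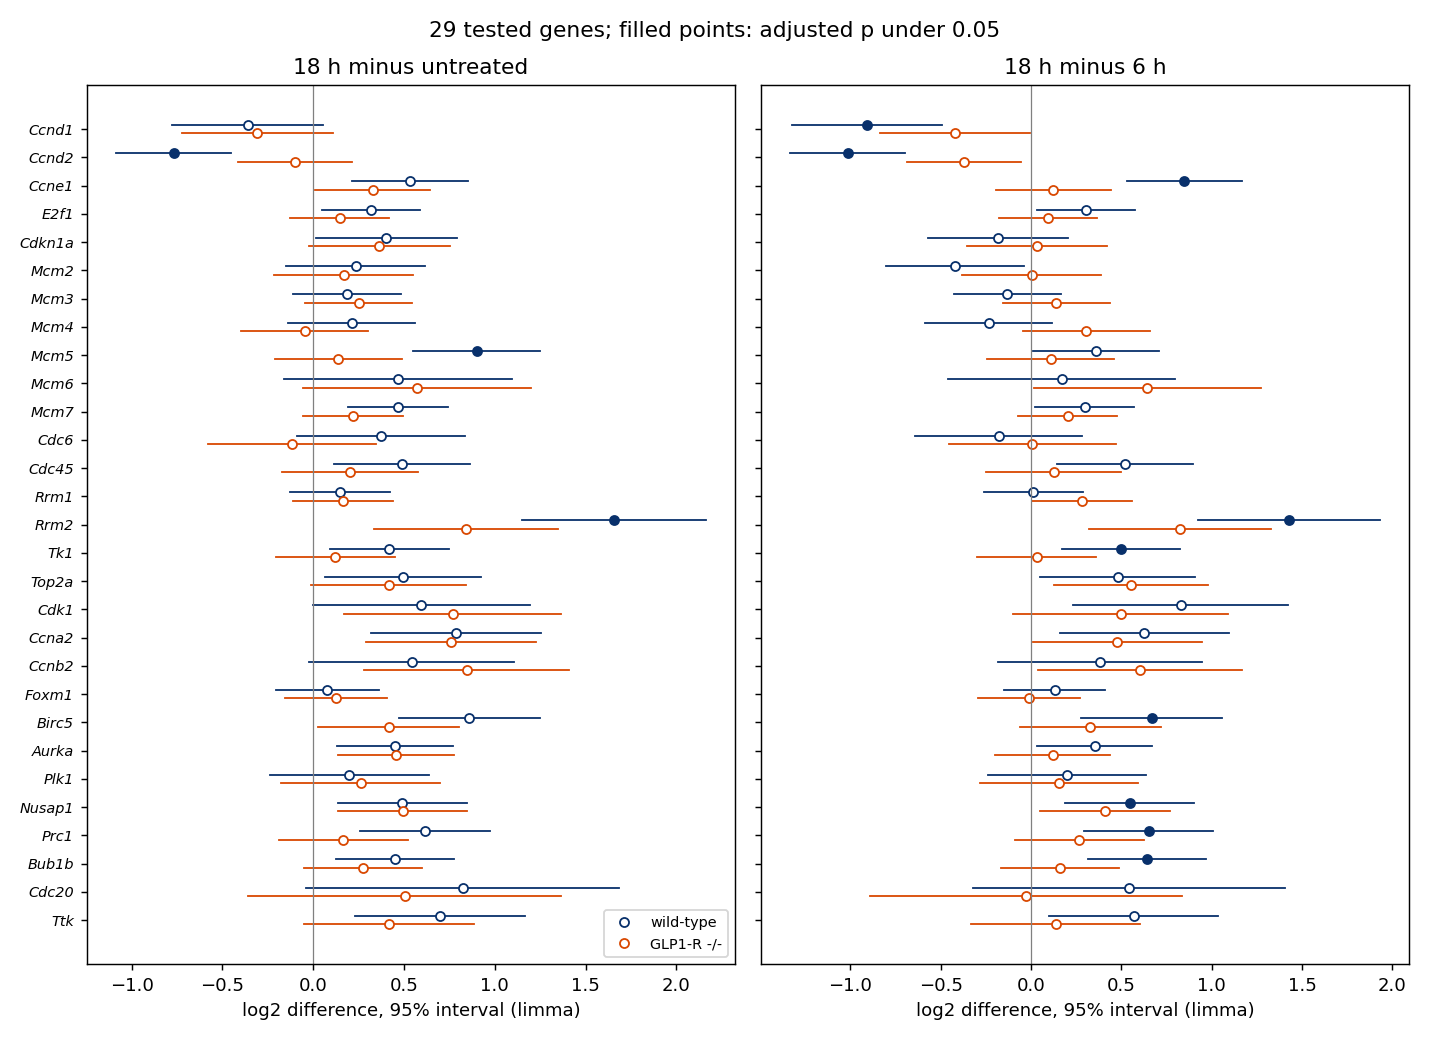
Log2 differences with 95% intervals from limma for the 29 tested genes, 18 h minus untreated (left) and 18 h minus 6 h (right), in wild-type mice (dark blue) and GLP1-R -/- mice (orange). Filled points are called at an adjusted p under 0.05, 3 on the left and 9 on the right, all in wild-type mice, and most open points of both genotypes lie to the right of 0.

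The largest difference of the whole list lay between the genotypes and not between times. Mcm6 (ENSMUSG00000026355_at), a helicase subunit, was at 6.59, 6.87 and 7.17 in untreated wild-type mice and at 5.64, 5.21 and 4.33 in untreated knockouts. The knockouts were 3.53-fold lower, a log2 difference of -1.82 (SE 0.30, limma adjusted p = 0.0073). It was the only call among the 29 genes, 3.45%, where 0.618% of all tested genes were called, 0.368% lower. Over the 36 genes, 4 lay lower in knockouts without overlap, against 5.1% of all rows, and 0 lay higher, against 7.55%. At 6 h Mcm6 was at 7.38, 7.20 and 6.95 in wild-type mice and 4.87, 4.96 and 5.13 in knockouts, 4.56-fold lower (-2.19, SE 0.30, limma adjusted p = 0.000306). At 18 h it was at 7.33, 7.85 and 6.86 against 6.07, 5.55 and 5.27, 3.29-fold lower (-1.72, SE 0.30, limma adjusted p = 0.00797). All 9 knockout arrays thus lay below all 9 wild-type arrays. The 18 h call was lost without wild-type 18 h replicate 11 (adjusted p = 0.0572) or knockout 18 h replicate 18 (0.0642), and the untreated call where only these 2 groups entered the model (0.0563).

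Of the other helicase subunits in untreated mice, Mcm2, Mcm3, Mcm4, Mcm5 and Mcm7 differed between the genotypes by -0.10 (Mcm7) to 0.068 (Mcm5), with limma adjusted p-values of 0.999 each. Ccnb2 was at 5.32, 4.90 and 4.50 in untreated wild-type mice and at 4.21, 4.19 and 4.19 in untreated knockouts (-0.71, SE 0.27, limma adjusted p = 0.435), which do not overlap. Cdc20 was at -0.42 (limma adjusted p = 0.999). On the high side stood Cdc6 at 0.35 (limma adjusted p = 0.87), Tk1 at 0.20 (0.98) and Cdkn1a at 0.074 (0.999).

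At 6 h 2 of 29 genes were lower in knockouts than in wild-type mice, or 6.9%, where 6.07% of all tested genes were called, 3.33% lower. Groups did not overlap downward for 6 of the 36 genes, against 8.72% of all rows. Besides Mcm6 this was Mcm4 (ENSMUSG00000022673_at), at 7.87, 7.74 and 7.55 in wild-type mice and 6.80, 6.97 and 7.10 in knockouts (-0.76, SE 0.17, limma adjusted p = 0.0108). Its groups did not overlap, and its call was lost without wild-type 6 h replicate 7 (adjusted p = 0.06) and where only these 2 groups entered the model (0.0944). At 18 h Mcm6 was the only call, where 1.27% of all tested genes were called, 0.916% lower. Mcm5 was at 4.78, 4.76 and 4.59 in knockouts at 18 h, below the wild-type arrays given above (-0.69, SE 0.17). Its adjusted p of 0.05 did not fall under the threshold. Rrm2 differed by -0.80 (SE 0.24, limma adjusted p = 0.126), also without overlap. The number of calls at 18 h was 0 without wild-type 18 h replicate 11 or knockout 18 h replicate 18, where 52 and 40 of all tested genes were called. It was 2 to 4 without wild-type untreated replicate 1 or 19, wild-type 6 h replicate 8, wild-type 18 h replicate 10, knockout 6 h replicate 13 or 15, or knockout 18 h replicate 16. In those fits 82 to 427 of all tested genes were called. Over the 36 genes 30 were lower in knockouts at 18 h and 6, or 16.7%, higher, where 51.2% of all rows were higher. Their median was -0.20, against 0.0050 over all rows, and -0.12 without wild-type 18 h replicate 11. For 8 of the 36 the knockout arrays lay below the wild-type ones, against 10.2% of all rows.

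Arrays of one group also differed among themselves. After the group means were removed, the median correlation over the 406 pairs of tested genes was 0.15 across the 18 arrays, against 0.021 over all pairs of tested genes, and it was 0.091 without the knockout 6 h group. The closest pair was Ccna2 and Cdc20, with r = 0.87. These are descriptions over arrays that share replicate 13. In wild-type mice at 18 h, replicate 10 was the lowest of the 3 arrays for Cdk1, Ccnb2, Bub1b, Prc1 and Birc5, but the highest for Ttk, a checkpoint kinase, at 5.42 against 4.98 and 5.0, and for Plk1, a mitotic kinase, at 7.41 against 7.26 and 7.21. For Rrm2 the 3 arrays lay close together, between 6.30 and 6.45.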

How the data were processed

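RNA from microdissected Brunner's glands was extracted with TRIzol, cleaned on RNeasy columns and biotin-labelled for 18 Affymetrix arrays, per the labels' protocols. The authors deposited log2 signals; RMA is named in the submitters' processing notes without a version. The array model, probe sets and build were not given in the sources used. Each array is an individual mouse, per the design text, so 3 mice per group set the precision.

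Groups were taken from the labels. For 12 contrasts, limma 3.58.1 (R 4.3.3, lmFit and eBayes) estimated a mean for each group from all 18 arrays, leaving 12 residual degrees of freedom. The p-values are two-sided and were adjusted by Benjamini-Hochberg over 12775 genes. The fit was tested on simulated data. The 40 genes, and the tests, were chosen with earlier results of these data known. Named are all called genes, 11 fixed for their roles (Mki67 and Pcna were not analysed here), and the 3 largest differences each way in 4 contrasts. Other gene and marker lists written by symbol could not be matched to identifiers and were not analysed here. Promoter windows were searched on both strands. Alternatives changed the filter, normalization, array weights, variance model and samples.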

Additional observations from a re-analysis of the deposited data

How the results depend on the processing

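No paired analysis was possible because no number in the labels is shared by 2 arrays. The number of called genes of the list was 0 in every alternative for knockouts at 6 h and at 18 h against untreated knockouts and for the interactions at 6 h and at 18 h. Limma's array weights gave knockout 6 h replicate 13 a weight of 0.084. With them the number called was 3 in wild-type mice at 6 h (main value 0), 11 at 18 h (3) and 19 between the times (9). Of all 12775 tested genes, 1243, 212 and 3423 were then called, against 433, 25 and 1389 in the main fit. In knockouts between the times it was 3 (0), where 455 of all tested genes were called. For knockout against wild-type it was 8 at 6 h (2) and 9 at 18 h (1), where 2293 and 1589 were. For the interaction of genotype with 18 h against 6 h it was 4 (0), where 1512 were. In fits to only the groups compared the number called of the list was 1 in wild-type mice at 18 h and 0 for the untreated genotypes (1). It was 1 for the genotypes at 6 h and 2 at 18 h. Of all tested genes, 4, 53, 98 and 347 were called in these 4 fits. Centring arrays on their median gave 1 in wild-type mice at 6 h, where 400 of all tested genes were called. The stricter filter gave 4 between the wild-type times, where 1286 were. Quantile normalization and an intensity trend each gave 2 for the genotypes at 18 h, where 200 and 170 were. Leaving out 1 array gave 0 to 3 in wild-type mice at 6 h, 1 to 4 at 18 h and 4 to 13 between the times, and 1 to 3 and 0 to 4 for the genotypes at 6 h and 18 h. The cause of these shifts was not tested. No call changed direction. With 1 array left out, the median over the 36 genes ranged from 0.024 to 0.18 for the 6 h wild-type comparison and from -0.24 to -0.12 for the genotypes at 18 h. It moved by more than the spread between arrays for the genotypes at 6 h without knockout 6 h replicate 15 (0.019, main value -0.13). It did so too for the interaction at 6 h without replicate 13 (0.10, main value -0.059) and that of the times without replicate 15 (0.26, main value 0.14). The medians for the genotypes and for the interaction at 6 h thus changed sign with 1 array left out. For dim genes near the filter level of 4.79 the background step of RMA limits what can be resolved.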
